A study of Mus musculus with 9 samples.

Results

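The sodium pump beta subunit genes Atp1b1, Atp1b2 and Atp1b3 and the pump regulator genes Fxyd5 and Fxyd6 were followed through reprogramming of mouse fibroblasts to induced pluripotent stem (iPS) cells. These 5 genes are a small set out of 19937 genes that had an array row with a single gene symbol. Rows that carry the gene's symbol alone were used, and the row standing for a gene was chosen by its mean value over the 9 arrays, the highest being taken. The 5 symbols were selected with the expression values of these same arrays known. Their levels and differences are therefore given as a description, with standard errors but no p-values.

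The sodium pump (Na,K-ATPase) moves sodium out of the cell and potassium in at the cost of ATP, and the sodium gradient it makes drives the uptake of many nutrients. Its alpha subunit is the catalytic part, and its beta subunit is needed for the alpha subunit to fold and reach the cell surface. Proteins of the FXYD family, named after a shared amino acid motif, are short membrane proteins that bind the pump and tune its affinities and rate. Beta subunits also take part in contact between cells: the product of Atp1b1 bridges neighbouring epithelial cells, and that of Atp1b2 was first described as an adhesion molecule on glia. The product of Fxyd5, also called dysadherin, is known from human tumour cells for lowering adhesion through E-cadherin.

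The study had 3 groups of 3 arrays each. All cells came from the OG2-GFP/Rosa26-M2rtTA background, in which the doxycycline-dependent activator is made from the Rosa26 locus. Fibroblasts at passage 4 came from TSKM-iPS mice, whose cells switch on Tet1, Sox2, Klf4 and c-Myc (TSKM) when doxycycline is given. TSKM-3D cells, called day 3 here, were such passage 4 cells after 3 days of doxycycline, and their feeder medium was replaced by stem cell medium at the same time. The iPS cells came from the same secondary system, had been passaged 10 to 15 times and grew on mitomycin-treated mouse feeder fibroblasts, which were reduced before collection by plating for 0.5 h. The iPS samples are described as 1 line, and separate cultures or animals are not named for the arrays of any group, so the spread within a group may be technical.

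The arrays were closest within their groups. Over the 19937 genes, Pearson correlations between arrays ran from 0.9909 to 0.9984 within groups and from 0.8908 to 0.9548 between groups. The cell type label of the third fibroblast array names induced cells, whereas its title and passage name fibroblasts. Its correlation was 0.9509 to 0.9548 to the day-3 arrays, against 0.9978 to 0.9984 to the other fibroblast arrays, and it was treated as a fibroblast array. Of the introduced factors, Sox2 read 1.39 and Myc 1.60 higher in log2 value at day 3 than in fibroblasts. Klf4 differed by 0.04 and Tet1 read 1.13 lower, so neither showed the rise that the label would give. Whether these array rows read the introduced copies is not known. Mean marker levels followed the labels. The mean log2 level of 9 measured fibroblast markers ran from 11.38 to 11.46 in the fibroblast group. It was 9.45 to 9.50 at day 3 and 8.44 to 8.65 in the iPS group. That of 10 pluripotency markers was 5.13 to 5.22, 5.45 to 5.81 and 11.13 to 11.15. Single markers varied. At day 3, 6 fibroblast markers were past 2-fold lower, but Col1a1, Col1a2 and Col3a1 read 0.11, 0.60 and 0.59 higher. Between iPS and day 3, 4 were past 2-fold lower and Dcn was 1.45 higher. Of the pluripotency markers only Pou5f1 (1.85) and the introduced Sox2 were past 2-fold at day 3, and the other 8 were not.

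RefSeq promoter windows on the mouse build GRCm38.p6 were found for 4 of the 5 genes. A window each is shown for 3 of them, because these genes had unlike courses: Atp1b1 was low only at day 3, Fxyd5 was low from day 3 on, and Atp1b3 stayed near 1 level. Each is the 250 bases before an annotated start, 5′ to 3′ on the gene's strand, with CpG dinucleotides in capitals, since 1 of the introduced factors acts on methylated cytosine.
Atp1b1, minus strand, chr1:164458356-164458605: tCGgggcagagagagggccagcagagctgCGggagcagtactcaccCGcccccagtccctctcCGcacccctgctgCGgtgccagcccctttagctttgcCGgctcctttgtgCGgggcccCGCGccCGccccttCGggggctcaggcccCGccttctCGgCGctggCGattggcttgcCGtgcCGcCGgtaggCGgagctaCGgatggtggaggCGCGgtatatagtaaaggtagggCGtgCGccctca
Fxyd5, minus strand, chr7:31042332-31042581: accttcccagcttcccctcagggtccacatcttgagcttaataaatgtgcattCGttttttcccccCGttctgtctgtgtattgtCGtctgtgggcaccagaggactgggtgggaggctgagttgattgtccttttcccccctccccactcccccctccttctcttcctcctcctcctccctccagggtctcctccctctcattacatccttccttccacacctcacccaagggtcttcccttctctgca
Atp1b3, minus strand, chr9:96364432-96364681: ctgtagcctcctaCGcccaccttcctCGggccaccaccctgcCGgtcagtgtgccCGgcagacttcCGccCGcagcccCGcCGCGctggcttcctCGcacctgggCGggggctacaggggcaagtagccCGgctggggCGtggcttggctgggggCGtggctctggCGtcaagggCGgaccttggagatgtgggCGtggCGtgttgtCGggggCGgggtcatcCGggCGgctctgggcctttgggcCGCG

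The windows differed in CpG content. The Atp1b1 window held 24 CpG and was 70.4% G and C, and the Atp1b3 window held 24 CpG at 73.6%. The Fxyd5 window held 3 CpG at 55.6%, with long runs of C and T, and the window of Fxyd6 held 5 at 50.4%. Over all 32851 RefSeq windows of this length the median was 6 CpG, and 88.0% of windows held fewer than the Atp1b1 window against 29.0% for Fxyd5 and 44.4% for Fxyd6. The letters CAGGTG, a core bound by SNAI and ZEB repressors, were searched on both strands. They were in the Fxyd6 window and the Atp1b3 window shown here (1 match each), not in those of Atp1b1 and Fxyd5, and in 17.2% of all windows. The letters GGGCGG, the GC box, matched 2 times in the Atp1b1 window and 5 times in the Atp1b3 window and in 32.7% of all windows. Atp1b3 has another annotated start, whose window held 35 CpG and no match to either motif. These matches are descriptions of sequence, and no binding or methylation was measured here.

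Atp1b1 was low at day 3 alone. This gene encodes the beta subunit found in most tissues. Its log2 level was 8.73, 8.62 and 8.76 on the fibroblast arrays, 5.78, 6.04 and 5.33 at day 3 and 9.86, 9.86 and 10.09 on the iPS arrays. The 3 groups did not overlap, and the day-3 arrays were also the most spread, the SD being 0.0734 in fibroblasts, 0.358 at day 3 and 0.134 in the iPS group. At day 3 Atp1b1 was 7.94-fold below the fibroblast level, a log2 difference of -2.99 ± 0.15 (SE from the fit over all genes, n = 3 arrays per group). In iPS cells it was 18.7-fold above day 3 (4.22 ± 0.15) and 2.35-fold above fibroblasts (1.23 ± 0.15). Ordered over the 19937 genes, its day-3 difference was the 46th lowest and its difference between iPS and day 3 the 47th highest. The day-3 readings lay below the array medians of 6.01 to 6.20 and no background signal is known for them, so the depth of the dip is uncertain.

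Atp1b2 was high only in iPS cells. Its product is the beta subunit best known from the nervous system. Its log2 level was 5.60, 5.88 and 5.79 on the fibroblast arrays, 6.22, 6.30 and 5.87 at day 3 and 7.72, 8.07 and 7.92 on the iPS arrays. The day-3 and fibroblast arrays overlapped, by 1 array on each side, and every iPS array lay above every other array. The difference was 0.37 ± 0.13 between day 3 and fibroblasts, 1.77 ± 0.13 between iPS and day 3 and 2.14 ± 0.13 between iPS and fibroblasts, the last a 4.42-fold higher level. The fibroblast readings were below their array medians, so this fold is uncertain too. Markers of Schwann and glial cells averaged 5.53 to 5.68 for fibroblasts, 5.46 to 5.80 at day 3 and 5.61 to 5.81 for iPS cells over 5 measured genes. In each comparison 0 of the 5 were called (limma), beside 10.8%, 15.1% and 21.5% of all genes. An unadjusted p under 0.05 (limma) was found for 3 in each iPS comparison and 0 at day 3. Their group means ran from 5.04 (Mag, fibroblasts) to 6.37 (Sox10, iPS), near or below the array medians, so a difference in them might not show.

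Atp1b3, another widely used beta subunit gene, differed little between groups. Its log2 level was 10.63, 11.002 and 11.07 on fibroblast arrays 1 to 3, 11.21, 11.05 and 11.33 at day 3 and 11.41, 11.20 and 11.15 for iPS. The day-3 arrays overlapped those of both other groups, and the iPS arrays lay just above the fibroblast arrays. The differences were 0.30 ± 0.13 at day 3, 0.06 ± 0.13 between iPS and day 3 and 0.36 ± 0.13 between iPS and fibroblasts. The gene had a second single-symbol row, which read 10.31 to 10.56 in the fibroblast group, 10.08 to 10.63 at day 3 and 10.58 to 10.84 in the iPS group. On that row the same differences were -0.03, 0.27 and 0.24, so the rows put the small difference in different steps, and without the first fibroblast array the day-3 difference of the main row was 0.16.

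Fxyd5 was low from day 3 on. Its log2 level was 11.74, 11.53 and 11.63 on the fibroblast arrays, 7.79, 7.80 and 7.83 at day 3 and 8.03, 7.84 and 7.66 on the iPS arrays. All day-3 and iPS arrays lay more than 3 log2 units below the lowest fibroblast array, and the day-3 values fell inside the range of the iPS values. At day 3 Fxyd5 was 14.2-fold below fibroblasts (-3.83 ± 0.10), the 20th lowest difference of the 19937 genes. In iPS cells it was 13.8-fold below fibroblasts (-3.79 ± 0.10) and differed from day 3 by 0.04 ± 0.10. Of 9 measured fibroblast markers 6 were called lower at day 3 as well, but the collagen genes Col1a1, Col1a2 and Col3a1 were not, at 0.11, 0.60 and 0.59. Of 10 macrophage markers 4 were called lower at day 3, while Cd68 differed by 0.18 and was called higher in iPS cells than in fibroblasts, by 2.10. The mean log2 level of the 10 was 6.99 to 7.13 for fibroblasts, 5.64 to 5.87 at day 3 and 6.07 to 6.12 for iPS cells. The part of either cell type in the Fxyd5 difference was not tested, and in such bulk samples fewer cells of a type and less RNA per cell cannot be told apart. The iPS cells had grown on feeder fibroblasts, which were reduced before collection. Whether feeder RNA added to their Fxyd5 level was not tested.

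Fxyd6 followed the same order as Atp1b1 over a smaller range. It encodes phosphohippolin, a pump regulator known from brain. Its log2 level was 8.83, 8.82 and 8.83 on the fibroblast arrays, 7.78, 8.06 and 7.67 at day 3 and 9.37, 9.35 and 9.43 on the iPS arrays. No array of 1 group reached into another group. Fibroblast arrays 1 and 3 held exactly the same value, which may hide part of their spread. The difference was -0.99 ± 0.10 at day 3, just short of 2-fold, 1.55 ± 0.10 between iPS and day 3 (2.93-fold) and 0.56 ± 0.10 between iPS and fibroblasts (1.47-fold). Leaving out the second day-3 array, the highest of the 3, took the day-3 difference past 2-fold, to -1.10, and so did equal array medians, at -1.05.

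**Figure D1:**
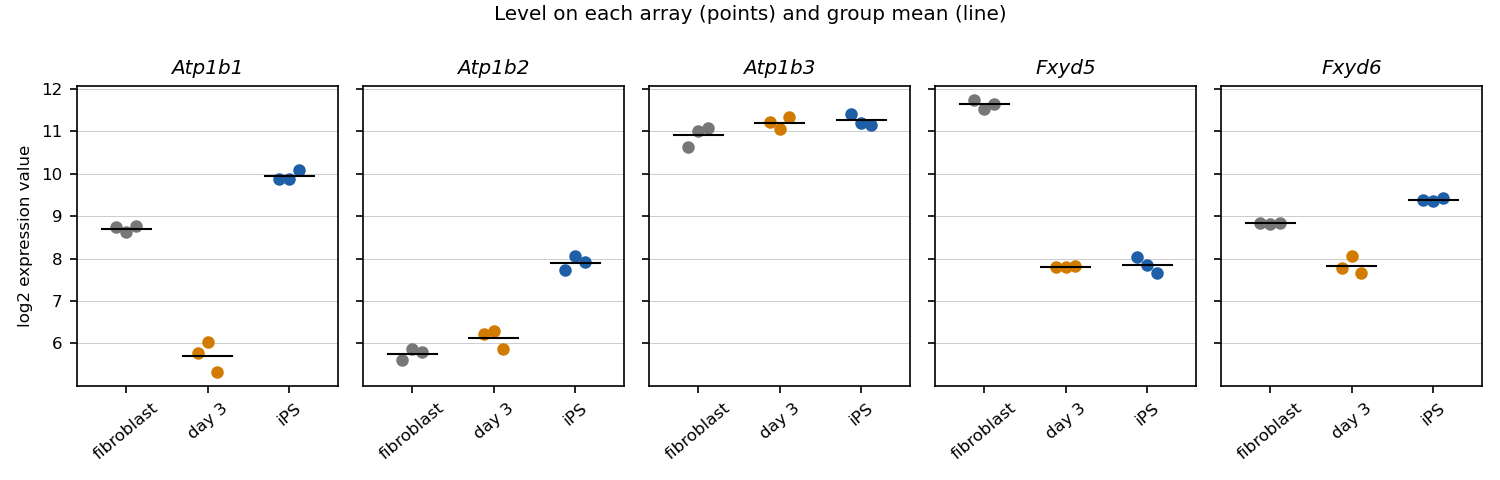
Log2 expression value on each array (points, 3 per group) and group mean (line) for Atp1b1, Atp1b2, Atp1b3, Fxyd5 and Fxyd6 in the fibroblast, day-3 and iPS groups. Atp1b1 and Fxyd6 are lowest at day 3, Atp1b2 is highest in iPS cells, Fxyd5 is high in fibroblasts alone and Atp1b3 stays between 10.63 and 11.41; heights of different genes are not comparable.

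Set side by side, the courses gave a different pattern in each step. A gene counted as past the line when its adjusted p (limma, Benjamini-Hochberg over all genes) was under 0.05 and its difference was at least 2-fold. Over all genes the 2-fold line alone decided this, so for the 5 genes it serves as a fold line and not as a test. At day 3 against fibroblasts 2 of the 5 genes, Atp1b1 and Fxyd5, were past it on the lower side, as were 7.58% of all genes, and 0 were past it on the higher side (3.25% of all genes). Between iPS and day 3, Atp1b1, Atp1b2 and Fxyd6 were past it on the higher side (6.48% of all genes) and 0 on the lower side (8.57%). Between iPS and fibroblasts Atp1b1 and Atp1b2 were higher (7.63% of all genes) and Fxyd5 was lower (13.8% of all genes). The groups did not overlap for 3, 3 and 5 of the 5 genes in these comparisons, where 53.1%, 49.5% and 65% of all genes did not overlap. The genes were listed with these contrasts known and the comparisons share arrays, so nothing is read from the counts.

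**Figure D2:**
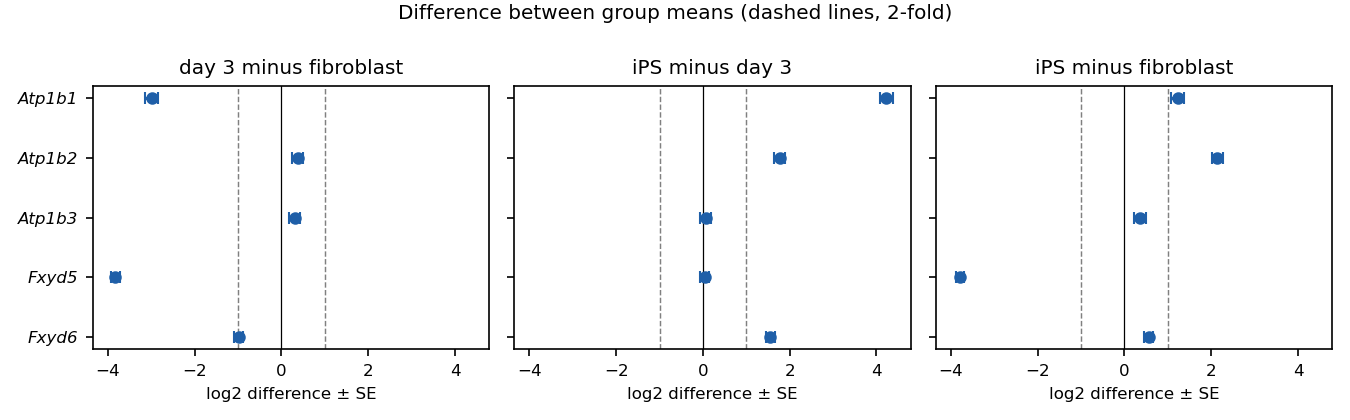
Log2 difference between group means (points) with its standard error (bars, n = 3 arrays per group) for the 5 genes in each comparison; dashed lines mark 2-fold. At day 3 Atp1b1 and Fxyd5 lie at -2.99 and -3.83 and Fxyd6 at -0.99, and in iPS cells against day 3 Atp1b1 lies at 4.22 while Atp1b3 and Fxyd5 lie near 0.

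Differences taken within each array show how unequally the beta subunit genes moved. The log2 value of Atp1b1 minus that of Atp1b3 was -2.20 ± 0.261 in the fibroblast group, -5.48 ± 0.494 at day 3 and -1.32 ± 0.250 in the iPS group (mean ± SD, n = 3 arrays each). It was lower by 3.29 at day 3 than in fibroblasts and higher by 4.16 in iPS cells than at day 3. For Atp1b2 minus Atp1b3 the values were -5.14 ± 0.129, -5.07 ± 0.356 and -3.35 ± 0.301, so the difference was smaller in size on the iPS arrays. Between the FXYD genes, Fxyd6 minus Fxyd5 was -2.80 ± 0.0967 for fibroblasts, 0.03 ± 0.208 at day 3 and 1.54 ± 0.215 for iPS cells, and no array of 1 group overlapped another. These are changes of a ratio between array rows and do not give the relative amount of the subunits.

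Of the rest of the pump family, 7 genes were analysed. They were Atp1a4, an alpha subunit gene known from sperm, Atp1b4, and Fxyd1, Fxyd2, Fxyd3, Fxyd4 and Fxyd7. In each of the 3 comparisons 0 of 7 were called (limma, with 2 at an unadjusted p under 0.05 each time), against 10.8%, 15.1% and 21.5% of all genes called in either direction. Their differences ran from -0.23 (Fxyd2) to 0.36 (Fxyd3) at day 3, from -0.20 to 0.21 between iPS and day 3 and from -0.06 to 0.26 between iPS and fibroblasts. The median difference was 0.05, 0.13 and 0.16 in these comparisons, beside 0.05, -0.01 and 0.05 over all genes. Only Fxyd4, a regulator known from kidney and colon, had an adjusted p under 0.05, at 0.26 ± 0.09 in iPS cells over fibroblasts (limma, adjusted p = 0.0348). Group means of the 7 genes lay between 4.55 and 6.61 in log2 value, near or below the array medians, and how far they stood above background is not known.

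Among related pumps and proteins that interact with the pump, 6 of 7 listed genes were measured. Nkain4, whose product belongs to a family that binds the beta subunit, read 5.86, 5.85 and 5.95 on the fibroblast arrays, 6.11, 6.41 and 5.90 at day 3 and 7.25, 7.16 and 7.41 on the iPS arrays. The iPS arrays stood above all others. It rose by 1.13 ± 0.12 in iPS cells over day 3 and by 1.39 ± 0.12 over fibroblasts (limma, Benjamini-Hochberg adjusted p = 7.46e-06 and 8.76e-07). The proton pump genes Atp4a, Atp4b and Atp12a and the further family members Nkain2 and Nkain3 were not called, with differences between -0.28 and 0.43 over the 3 comparisons. The median of the 6 was 0.19, 0.19 and 0.27.

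**Figure D3:**
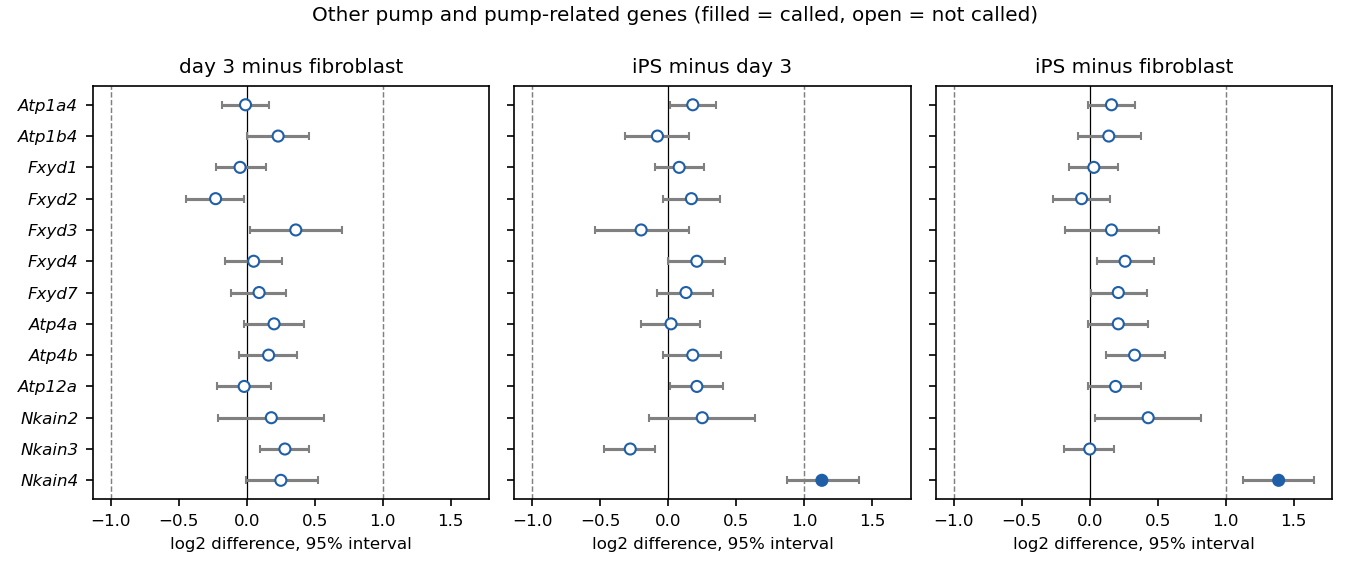
Log2 difference (points) with its 95% interval from the fit (bars) for 13 measured pump-family and related genes in each comparison; filled points were called at an adjusted p under 0.05 and 2-fold (dashed lines). Nkain4 alone is filled, at 1.13 and 1.39 in the iPS comparisons, and the other 12 genes lie within 0.5 of 0.

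Genes that use or balance the sodium and potassium gradients were called in both directions. Of 34 measured transport genes 0 were higher and 3 lower at day 3, which is 8.82% beside 10.8% of all genes. The sodium-coupled glutamate transporter gene Slc1a3 fell by 2.49 (SE 0.10), the sodium bicarbonate cotransporter gene Slc4a4 by 1.92 (SE 0.08) and the potassium channel gene Kcnj15 by 1.76 (SE 0.10; limma, Benjamini-Hochberg adjusted p = 4.88e-08, the highest of the 3). Between iPS and day 3, 6 were higher and 2 lower, 23.5% beside 15.1% of all genes. The potassium channel gene Kcnk5 rose by 2.08 ± 0.10, the potassium chloride cotransporter gene Slc12a7 by 1.74 ± 0.07, the sodium phosphate transporter gene Slc20a1 by 1.44 ± 0.08 and the mitochondrial sodium calcium exchanger gene Slc8b1 by 1.23 ± 0.07. The myo-inositol transporter gene Slc5a3 changed by -1.43 ± 0.08 and Slc12a4 by -1.05 ± 0.08. Between iPS and fibroblasts 5 were higher and 7 lower, 35.3% beside 21.5% of all genes, with Kcnk5 at 2.76, Slc12a7 at 1.92, the vitamin transporter gene Slc5a6 at 1.64 and Slc20a1 at 1.15, against Slc4a4 at -2.37, Slc5a3 at -2.30 and Kcnj15 at -2.01, with Slc1a3 next. The list's median difference was 0.03, 0.04 and 0.04 in the 3 comparisons.

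Genes for kinases, anchors and ligands that act on the pump or, like Stk39, on cation chloride cotransport were called in both directions. Of 19 measured, 0 were higher and 1 lower at day 3, 1 higher and 5 lower between iPS and day 3, and 2 higher and 7 lower between iPS and fibroblasts, which is 5.26%, 31.6% and 47.4% of them in either direction, beside 10.8%, 15.1% and 21.5% of all genes. Over all genes too, more were lower than higher in each comparison, 7.58% and 3.25% at day 3, 8.57% and 6.48% between iPS and day 3, and 13.8% and 7.63% between iPS and fibroblasts. The protein kinase C gene Prkca fell in both steps, by 1.96 (SE 0.09) and by 1.66 (SE 0.09). The caveolin gene Cav1, whose product holds pump units at the membrane, changed by -3.55 ± 0.13 and Stk39, a kinase gene of cation chloride cotransport, by -3.11 ± 0.12 between iPS and day 3 (limma, Benjamini-Hochberg adjusted p = 1.14e-09 and 1.33e-09). The ankyrin genes Ank3 and Ank2, for adaptors that tether the pump to the cytoskeleton, changed by -1.45 and -1.12 in the same comparison, and the phosphatase inhibitor gene Ppp1r1a by 1.00. Agrn, whose product can bind the pump, was 1.65 ± 0.09 higher in iPS cells than in fibroblasts. The medians were -0.07, -0.21 and -0.36, beside 0.05, -0.01 and 0.05 over all genes.

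**Figure D4:**
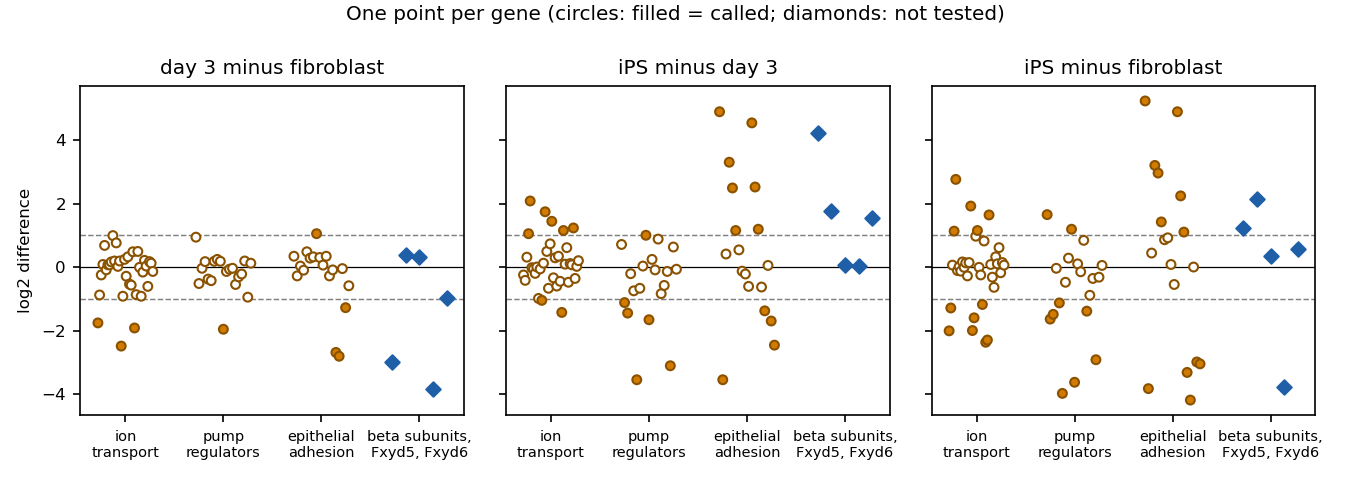
Log2 difference of every measured gene of 3 lists (circles, filled where called) and of the 5 beta subunit and FXYD genes (diamonds, shown without calls) in each comparison. Dashed lines mark 2-fold. At day 3 most circles lie between the dashed lines, and in iPS cells the adhesion genes spread from -3.55 to 4.89 against day 3.

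Because Atp1b1 and Fxyd5 have roles at cell contacts, genes of epithelial adhesion and its repressors were set beside them. Of 18 measured, 1 was higher and 3 lower at day 3, 22.2% beside 10.8% of all genes. The repressor genes Snai1, Snai2 and Zeb1 fell by 2.69, 2.81 and 1.28 at day 3, the same step in which Fxyd5 and Atp1b1 were lower, and the catenin gene Ctnna1 rose by 1.05. E-cadherin, Cdh1, averaged 5.97 at day 3 and 5.63 in fibroblasts (0.34 ± 0.10). Between iPS and day 3, where Atp1b1 was 4.22 higher, 7 were higher and 4 lower (61.1% beside 15.1% of all genes), with Cdh1 at 4.89, Epcam at 4.54, the claudin gene Cldn4 at 3.30 and the junction gene F11r at 2.52, against Cdh2 (N-cadherin) at -3.55, Zeb2 at -2.46, Zeb1 at -1.70 and Snai2 at -1.38, with adjusted p-values (limma, Benjamini-Hochberg) of 6.43e-07 or less. Between iPS and fibroblasts 7 were higher and 5 lower, 66.7% beside 21.5% of all genes. The list's median was -0.01, 0.23 and 0.65 in the 3 comparisons. Over all genes 1511 were called lower at day 3 and 1292 higher between iPS and day 3. A link of the adhesion genes to Atp1b1 or Fxyd5 was not tested.

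The place of the genes on the chromosomes was compared with that of their neighbours, taking the 5 nearest measured genes on each side in the order of GRCm38.p6, a comparison chosen after the values were seen. Fxyd5 lies on chromosome 7 in a cluster with Fxyd7, Fxyd1 and Fxyd3. Its 10 neighbours differed by -0.17 to 0.38 at day 3 and 0 were called (limma), beside 10.8% of all genes, while Fxyd5 was at -3.83. Apart from Usf2 (9.0) and Hamp2 (7.14), these neighbours had fibroblast means of 3.59 to 6.39, near or below the array medians. A fall in them might therefore not show. In iPS cells against day 3 the neighbour Lsr, a tight junction gene, was higher by 1.52, and Fxyd5 differed by 0.04. Fxyd6 on chromosome 9 lies beside Fxyd2, which was at -0.23 at day 3, and of its 10 neighbours only Bace1 was called in that comparison (-1.46), a share close to that of all genes. Apart from Cep164, Bace1 and Rnf214, the neighbours of Fxyd6 had fibroblast means of 4.92 to 5.86, below the array medians. Of the 10 neighbours of Atp1b1 on chromosome 1, 1 was called at day 3: Dpt, a matrix protein gene, was lower at day 3 by a log2 difference of -4.37, and it remained low in iPS cells, where it differed from day 3 by -0.06. Of the 10 neighbours of Atp1b2 on chromosome 11, 0 were called at day 3, beside 10.8% of all genes. Between iPS and day 3, 4 of 10 were called higher, where 6.48% of all genes were called higher. They were Mpdu1, Sox15, Tmem88 and Wrap53, at 1.73, 1.26, 1.14 and 1.11. In that comparison 0 were called lower, and Sat2 was at -0.98. Atp1b3 on chromosome 9 had 1 of 10 neighbours called lower at day 3, Pxylp1 at -1.45, beside 7.58% of all genes. Between iPS and day 3, 1 of its 10 neighbours was called higher, Gk5 at 1.63.

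**Figure D5:**
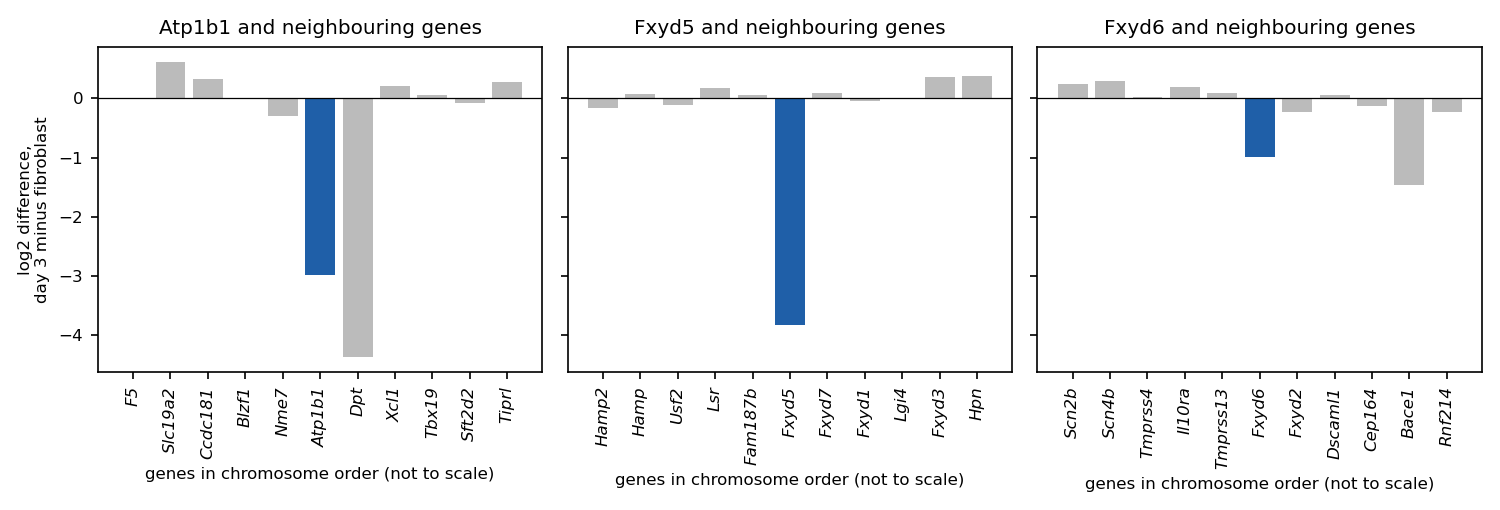
Log2 difference between day 3 and fibroblasts for Atp1b1, Fxyd5 and Fxyd6 (blue bars) and the 5 nearest measured genes on each side (grey bars), in chromosome order and not to scale. The bar of Fxyd5 reaches -3.83 among neighbours between -0.17 and 0.38, whereas Dpt beside Atp1b1 reaches -4.37. Most neighbours of Fxyd5 and Fxyd6 read near or below the array medians in fibroblasts.

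For each of the 5 genes, the 3 genes with the most similar course were sought by the root mean square difference over the 9 arrays, each gene being centred on its own mean. The nearest to Atp1b1 was Irgm1, an interferon-inducible GTPase gene, at 0.384 log2 units, followed by the cationic amino acid transporter gene Slc7a3 at 0.524 and Laptm5 at 0.532. Irgm1 differed by -2.47 at day 3 and 3.53 between iPS and day 3. The nearest to Fxyd5 were the lubricin gene Prg4 at 0.160, Angptl7 at 0.250 and Igsf10 at 0.264, and Prg4 differed by -3.48 at day 3 and -0.22 between iPS and day 3. Fxyd6 was closest to the folate enzyme gene Aldh1l1 (0.068), H2bc18 (0.086) and Tmem170 (0.104). Atp1b2 was closest to Slc37a1 (0.096), Smagp (0.097) and Glt1d1 (0.107). The nearly level course of Atp1b3 was closest to those of Tcl1b1 (0.064), Olfr613 (0.090) and Olfr811 (0.093). Among the 5 genes themselves, the closest pairs were Atp1b3 with Fxyd6 at 0.69 and Atp1b2 with Fxyd6 at 0.71, and the farthest was Atp1b2 with Fxyd5 at 2.50. Values were not scaled, so the measure depends on a gene's range as well as on the order of its groups. Atp1b1 and Fxyd6, both lowest at day 3, were at 1.14, with spans over the arrays of 4.76 and 1.76. Atp1b3 spanned only 0.79.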

How the data were processed

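RNA from 9 samples was labelled with a terminal labelling kit for whole transcripts and measured on Affymetrix mouse arrays, 1 per sample, per the labels' protocols. The deposited table holds log2 expression values by the authors for 34760 rows; how arrays were made comparable is not given in the sources used here. Array medians ran from 6.01 to 6.23, and the values were used as deposited. Precision is limited by the 3 arrays in each group.

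The platform annotation gave 21640 rows 1 symbol, 1321 several (not used) and 11799 none here; 21553 matched the GRCm38.p6 gene table by identifier. The row with the highest mean stood for each of 19937 genes. One limma model (version 3.58.1, R 4.3.3) with moderated variances covered all 9 arrays, with Benjamini-Hochberg adjustment over all genes and a call at an adjusted p under 0.05 and at least 2-fold. The test was checked on simulated data.

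Genes named are the 5 members, the analysed pump-family and related genes, up to 4 called genes per direction of each other list, and 3 nearest profiles per member without clone names. Markers, introduced factors and chromosome neighbours are named beside them. Members, lists and tests were chosen with earlier results of these data known. Equal replicate numbers in the titles were not taken as pairs, since the deviations of 0 of 9 same-numbered pairs correlated above 0.1 (-0.098 to 0.062).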

Additional observations from a re-analysis of the deposited data

How the results depend on the processing

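Alternatives were quantile normalization, equal array medians, the mean of all rows of a gene, a filter at the lower quartile of the rows, only the 2 groups compared, the replicate number as a block, and leaving out each array. Of 180 recomputed differences of the 5 genes, 172 moved by less than the spread between arrays, 8 moved by more and 0 past 2-fold changed sign. Most of the 172 could not have moved by more. The filter, the fit of 2 groups and the block leave a difference unchanged, as does the row mean for single-row genes. Leaving out 1 of 3 arrays always moves it by less than this spread. All 8 came from the 2 rescalings, so the count of 172 is no measure of stability. With quantile normalization Fxyd5 was at -3.73 and Fxyd6 at -0.84 at day 3 against fibroblasts, and Atp1b1 was at 1.37 and Fxyd6 at 0.71 in iPS cells against fibroblasts. With equal array medians, which moved the median gene to -0.12 in iPS cells against fibroblasts, Atp1b1 was at 1.06, Atp1b2 at 1.97, Fxyd5 at -3.96 and Fxyd6 at 0.39 there.
Leaving out each array gave -3.15 to -2.80 for Atp1b1, -3.88 to -3.77 for Fxyd5 and -1.10 to -0.91 for Fxyd6 at day 3, and equal array medians put Fxyd6 at -1.05, so the side of the 2-fold line on which Fxyd6 falls depends on 1 array and on the scaling. The number of called pump-family genes stayed at 0 of 7 under all these alternatives, and the numbers of called genes stayed within 1.5 times. The replicate number as a block left them at 2159, 3001 and 4283. This tells little, since the block cannot change a difference and the 2-fold line alone decided the calls. Brightness over background is not known and limits the folds of Atp1b1 at day 3 and Atp1b2 in fibroblasts.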
